A study of Mus musculus with 8 samples.

Results

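Retinoic acid metabolism and response genes were measured by bulk RNA-seq in mouse back skin carrying a T-cell lymphoma, with and without bexarotene. The 9 genes, chosen by gene name from the 55247 rows of the count table, were *Cyp26a1*, *Cyp26b1*, *Dhrs3*, *Stra6*, *Crabp1*, *Crabp2*, *Rarb*, *Rarres2* and *Tgm2*. Each library came from 1 female wild-type mouse of 8 weeks, of the strain C57BL/6J by the labels but C57BL/6JJmsSlc by the study's methods, and there were 4 bexarotene-treated and 4 vehicle-treated mice. All 8 mice had received EL4 cells, a single mouse T-cell lymphoma line, under the skin of the back on Day 0 (100 μL of 2000000 cells/mL). The bexarotene-treated mice then received 0.1 mg of the drug into the peritoneum on Day 14, the controls received vehicle, and tumor-bearing skin was taken from both on Day 16. Each value therefore averages over the lymphoma and the host tissue around it, at a single time after a single dose.

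Bexarotene is a ligand of the retinoid X receptors (RXRs), which bind DNA as partners of the retinoic acid receptors (RARs) and of several other nuclear receptors. Cells take up retinol with the help of the transporter STRA6, store it as esters or oxidize it through retinaldehyde to retinoic acid, and hand retinoic acid to the RARs with the help of the binding protein CRABP2. Retinoic acid raises transcription of enzymes that limit its own level, the CYP26 hydroxylases and the reductase DHRS3, and of the receptor gene *Rarb*, so the RNA of these genes is widely used as a readout of RAR signaling.

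The classic retinoic acid response element is a direct repeat of a hexamer with 5 bases between the copies. Promoter windows from 250 bases before to 50 bases after the annotated start were sought in the RefSeq table (build GRCm38.p6). They were found for 6 of the 9 genes, in 11 windows, and for none of *Crabp2*, *Tgm2* and *Rarres2*. Both strands were searched for the hexamer AGGTCA, its relative AGTTCA, and the further forms GGGTCA or else GGTTCA, in direct repeats with 1, 2 or 5 bases between them. The 5-base spacing occurred in the windows of *Rarb* and *Cyp26a1* and in 32 of all 32851 windows of the table (0.0974%), while no window of the 9 genes held a repeat with 1 base (0.222% of all windows) or 2 bases (0.268%) between the hexamers. The 250 bases before the start are shown for these 2 genes, and for *Cyp26b1*, the gene with the most reads, whose window held none of the 4 hexamers. Capitals mark the hexamers of the repeat, which in *Cyp26a1* lie on the opposite strand and so are read there as TGAACT.
Rarb, chr14:16575477-16575726, minus strand: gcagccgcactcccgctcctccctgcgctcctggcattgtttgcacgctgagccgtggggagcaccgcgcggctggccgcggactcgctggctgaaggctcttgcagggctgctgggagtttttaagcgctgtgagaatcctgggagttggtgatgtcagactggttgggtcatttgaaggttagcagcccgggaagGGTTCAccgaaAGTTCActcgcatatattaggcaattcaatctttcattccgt
Cyp26a1, chr19:37697558-37697807, plus strand: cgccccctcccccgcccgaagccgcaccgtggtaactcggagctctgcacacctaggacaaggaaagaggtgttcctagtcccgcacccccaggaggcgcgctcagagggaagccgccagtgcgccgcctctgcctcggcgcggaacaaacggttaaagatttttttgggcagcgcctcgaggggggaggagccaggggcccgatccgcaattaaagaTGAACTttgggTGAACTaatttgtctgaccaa
Cyp26b1, chr6:84593811-84594060, minus strand: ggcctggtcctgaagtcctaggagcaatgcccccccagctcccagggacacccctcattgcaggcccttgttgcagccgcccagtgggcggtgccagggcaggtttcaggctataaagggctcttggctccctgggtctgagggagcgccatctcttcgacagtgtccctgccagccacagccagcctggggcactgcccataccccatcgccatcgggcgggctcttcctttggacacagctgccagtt
The repeat spans bases 53 to 37 before the start of *Rarb* and bases 32 to 16 before the start of *Cyp26a1*. A match describes letters of the reference and not binding, and its absence from 1 window says nothing of elements elsewhere.

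Few reads lay behind these genes. The table holds unscaled counts of reads per gene, which summed to 8518428 to 18340980 in the bexarotene-treated mice and 16196852 to 24020342 in the vehicle-treated mice. Although the libraries were labelled as depleted of ribosomal RNA, the 18S ribosomal RNA gene *Rn18s* alone took 54.8% to 58.6% of the counts with bexarotene and 50.8% to 59.8% with vehicle. Protein-coding genes held 342146 to 2872256 of them with bexarotene and 2270486 to 4396334 with vehicle. The 9 genes together held 21 to 717 counts per mouse with bexarotene and 351 to 683 with vehicle. Levels are given as CPM, which relates each count to the size of its library, here corrected for composition by edgeR's TMM method. A single count was then worth 0.158 CPM in the library of Bexarotene 1 and 0.422 CPM in that of Bexarotene 2. For the remaining 6 mice it was worth 0.0199 to 0.0546 CPM. Of the 9 genes, 8 had a count in some mouse and 5 passed the filter on low counts (*Cyp26b1*, *Crabp1*, *Dhrs3*, *Tgm2* and *Rarres2*). Fold changes of *Crabp2* and *Stra6* come from the same test without the filter.

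No retinoic acid gene passed edgeR's quasi-likelihood test of bexarotene-treated against vehicle-treated mice. At a Benjamini-Hochberg adjusted p of 0.05, 0 of the 5 filtered genes were called, as were 0 of all 11616 genes tested (0%), and at an unadjusted p of 0.05 the counts were 0 of 5 and 428 of 11616 (3.68%). DESeq2 and limma-voom also gave 0 of these genes at either threshold. The groups overlapped in every one of the 9 genes, while in 164 of all genes tested every bexarotene-treated mouse lay above every vehicle-treated mouse (1.41%) and in 165 below (1.42%). The fitted log2 fold change, bexarotene over vehicle, was above 0 for *Cyp26b1* and below 0 for the other 4 filtered genes, with a median of −0.39, beside a median of −0.027 and 53.5% below 0 among all genes tested. In bulk tissue, fewer cells of a type and less RNA per cell cannot be told apart.

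**Figure D1:**
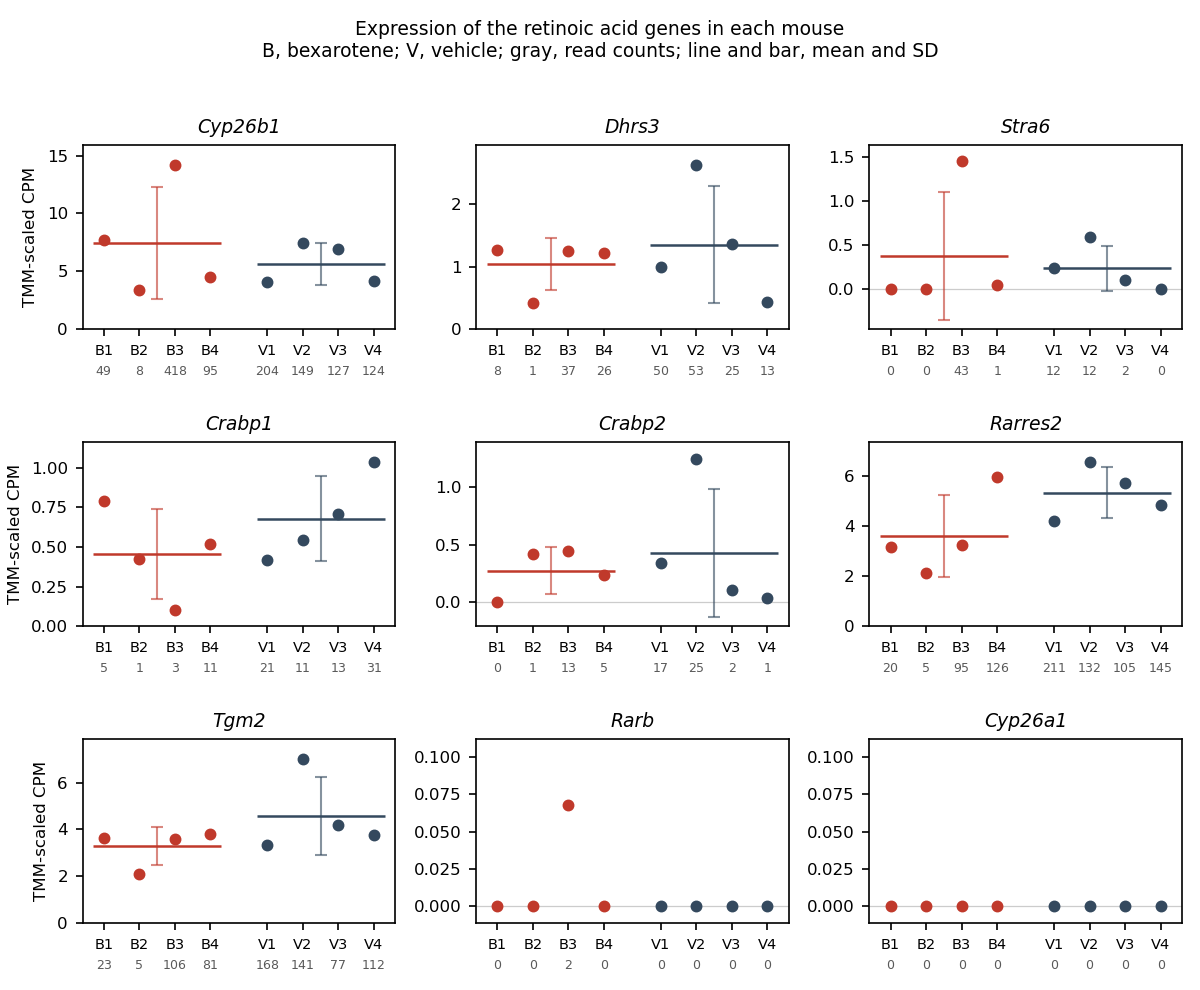
TMM-scaled CPM of each retinoic acid gene (vertical axes, a separate range per gene) in Bexarotene 1 to 4 (B1 to B4, red) and Vehicle 1 to 4 (V1 to V4, blue-gray), with read counts in gray under the mice. Lines and bars give the mean and SD (n = 4), which are not drawn for *Rarb* and *Cyp26a1*. *Cyp26b1* reaches 14.2 CPM in Bexarotene 3 and *Tgm2* 7.01 CPM in Vehicle 2, and red and blue-gray points overlap for every gene.

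Among the genes that clear or restrain retinoic acid, *Cyp26b1* had the most reads and *Cyp26a1* none. *Cyp26b1* (ENSMUSG00000063415, GRCm39 chromosome 6, 84548396 to 84570890) encodes a hydroxylase that degrades retinoic acid. It had 49, 8, 418 and 95 counts in Bexarotene 1 to 4, against 204, 149, 127 and 124 in Vehicle 1 to 4. Its levels were 7.73, 3.38, 14.2 and 4.48 CPM with bexarotene, against 4.05, 7.41, 6.93 and 4.15 CPM with vehicle. Bexarotene 3 stood above the rest, while Bexarotene 2 was the lowest of all 8 mice and the other 2 bexarotene-treated mice lay close to the range of the controls. The log2 fold change was 0.51 (standard error 0.39, 95% interval −0.34 to 1.36, adjusted p = 0.976 in edgeR). An exact permutation test, two-sided and over all 70 assignments of the mice, gave p = 0.571, where the smallest p possible was 0.0286. Without Bexarotene 3 the log2 fold change was −0.045.

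*Cyp26a1* (ENSMUSG00000024987, GRCm39 chromosome 19, 37686246 to 37689984), which encodes the other main retinoic acid hydroxylase, had 0 counts in all 8 mice. A count of 0 allows up to 3 counts over a group, which are worth 0.0506 CPM with bexarotene and 0.0253 CPM with vehicle, for counting error only. *Dhrs3* (ENSMUSG00000066026, chromosome 4, 144619397 to 144654779) encodes a reductase that turns retinaldehyde back into retinol. Its levels were 1.26, 0.422, 1.26 and 1.23 CPM in Bexarotene 1 to 4, against 0.993, 2.64, 1.37 and 0.435 CPM in Vehicle 1 to 4. The bexarotene-treated mice other than Bexarotene 2, which had 1 count, lay close together, and the vehicle-treated mice spread on both sides of them. The log2 fold change was −0.20 (standard error 0.51, adjusted p = 0.9999 in edgeR), with an interval from −1.31 to 0.91, and it was 0.33 without Vehicle 2.

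*Stra6* (ENSMUSG00000032327, chromosome 9, 57971071 to 58061279), the gene of the retinol transporter, rested on 1 bexarotene-treated mouse. It had 0, 0, 43 and 1 counts in Bexarotene 1 to 4, against 12, 12, 2 and 0 in Vehicle 1 to 4, which gave 1.46 CPM in Bexarotene 3 and at most 0.597 CPM elsewhere. Bexarotene 3 thus held 43 of the 44 counts of its group. Without the filter the log2 fold change was 1.16 (standard error 0.93, 95% interval −0.75 to 3.07, adjusted p = 0.832 in edgeR), and the exact permutation p was 0.971. With Bexarotene 3 left out, 1 count remained in the treated group and the log2 fold change was −2.68, and with Vehicle 2 left out it was 1.98. *Stra6* and *Cyp26b1* both had their highest level of all 8 mice in Bexarotene 3.

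The binding protein genes were scarce. *Crabp1* (ENSMUSG00000032291, chromosome 9, 54672032 to 54680394) encodes a cytosolic protein that holds retinoic acid and is known in skin from dermal fibroblasts. It had 5, 1, 3 and 11 counts in Bexarotene 1 to 4, against 21, 11, 13 and 31 in Vehicle 1 to 4, or 0.789, 0.422, 0.102 and 0.519 CPM against 0.417, 0.547, 0.710 and 1.04 CPM. Every bexarotene-treated count lay at or below the lowest vehicle count, but once scaled for depth the levels overlapped, with the lowest in Bexarotene 3 and the highest in Vehicle 4. The log2 fold change was −0.77 (standard error 0.60, 95% interval −2.09 to 0.54, adjusted p = 0.976 in edgeR, exact permutation p = 0.343), and −0.17 without Bexarotene 3.

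*Crabp2* (ENSMUSG00000004885, chromosome 3, 87855973 to 87860683), whose product carries retinoic acid to the RARs, had 0, 1, 13 and 5 counts in Bexarotene 1 to 4, against 17, 25, 2 and 1 in Vehicle 1 to 4. Its levels were 0 to 0.442 CPM with bexarotene, against 0.338, 1.24, 0.109 and 0.0335 CPM in Vehicle 1 to 4. Vehicle 2 stood above the other 7 mice, and 2 of the remaining vehicle-treated mice lay below 3 of the bexarotene-treated mice. Without the filter the log2 fold change was −0.54 (standard error 0.86, adjusted p = 0.914 in edgeR), and it was 0.67 without Vehicle 2.

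*Rarb* (ENSMUSG00000017491, chromosome 14, 5650540 to 6038924) encodes an RAR, and its promoter window holds the repeat shown above. It had 2 counts in Bexarotene 3 (0.0680 CPM) and 0 in the other 7 mice, so both groups were at or under the limit of 3 counts and no fold change is given. Of the 6 genes with a promoter window, *Rarb* and *Cyp26a1*, whose windows held the 5-base-spaced repeat, had the fewest counts. *Crabp2*, *Tgm2* and *Rarres2* had no window to search, and a link between repeat and level was not tested. On GRCm39 *Rarb* shares 2612 exonic bases with *Top2b* on the opposite strand, which had 1924 counts in the 8 mice. The library kit keeps strand, but whether reads were counted by strand is not given in the sources used here.

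The remaining 2 genes respond to retinoids but take no part in retinoic acid turnover, and both had a count in every mouse. *Rarres2* (ENSMUSG00000009281, chromosome 6, 48546630 to 48549723) encodes chemerin, a secreted protein that attracts leukocytes and acts on fat cells. Its levels were 3.16, 2.11, 3.23 and 5.94 CPM in Bexarotene 1 to 4, against 4.19, 6.56, 5.73 and 4.86 CPM in Vehicle 1 to 4. Bexarotene 1, 2 and 3 lay below all 4 vehicle-treated mice, and Bexarotene 4 lay above 3 of them. The log2 fold change was −0.45 (standard error 0.28, 95% interval −1.06 to 0.16, adjusted p = 0.976 in edgeR, exact permutation p = 0.171). Leaving out Bexarotene 4 gave −0.82, and leaving out both Bexarotene 1 and 2 gave −0.20. *Rarres2* shares 931 exonic bases with *Lrrc61* on the opposite strand, which had 141 counts in all, beside 839 for *Rarres2*.

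*Tgm2* (ENSMUSG00000037820, chromosome 2, 157958322 to 157988356) encodes tissue transglutaminase, which cross-links proteins and is induced by retinoic acid in several cell types. Its levels were 3.63, 2.11, 3.60 and 3.82 CPM in Bexarotene 1 to 4, against 3.34, 7.01, 4.20 and 3.75 CPM in Vehicle 1 to 4. Vehicle 2 was high, Bexarotene 2 was low with 5 counts, and the other 6 mice lay between 3.34 and 4.20 CPM. The log2 fold change was −0.39 (standard error 0.27, 95% interval −0.99 to 0.21, adjusted p = 0.976 in edgeR, exact permutation p = 0.229), and −0.11 without Vehicle 2. *Tgm2* shares 370 exonic bases with *Rprd1b* on the opposite strand, which had 861 counts, beside 713 for *Tgm2*.

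**Figure D2:**
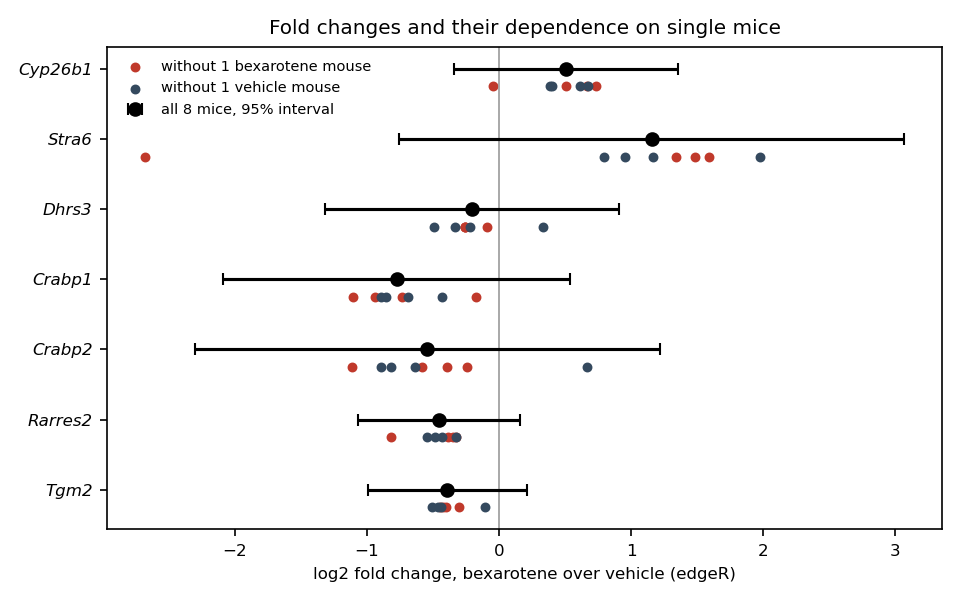
Log2 fold change, bexarotene over vehicle, from edgeR (horizontal axis) for the 7 retinoic acid genes with enough counts for a fit, with the 95% interval (black) and the value after leaving out 1 bexarotene-treated (red) or 1 vehicle-treated (blue-gray) mouse. Every interval spans 0, from −0.34 to 1.36 for *Cyp26b1* and from −0.75 to 3.07 for *Stra6*, which moves to −2.68 without Bexarotene 3.

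The same mice stood at the ends of the range for several genes. Of the 7 genes measured in more than 1 mouse, Vehicle 2 was the highest vehicle-treated mouse for 6 and the highest of all 8 mice for 4 (*Crabp2*, *Dhrs3*, *Tgm2* and *Rarres2*), and Bexarotene 2, the shallowest library, was the lowest of all for 5, of which *Stra6* was a tie at 0 counts with Bexarotene 1 and Vehicle 4. Without Bexarotene 1 and 2 the median log2 fold change of the filtered genes was −0.20, and without Vehicle 2 it was −0.11. With total counts as the only scaling it was −0.91, beside −0.66 over all genes tested.

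The markers of skin cell types differed between the same mice. The summed level of 6 keratinocyte markers was 39.7 to 137 CPM with bexarotene, against 1.37 to 369 CPM with vehicle. All 6 were highest in Vehicle 2, and in Vehicle 4 *Krt1*, *Krt10* and *Trp63* were at 0. Other markers were present in Vehicle 4, with *Dcn* at 19.2 and *Pecam1* at 7.87 CPM. Of the sebaceous gland list, *Scd1* was at 11.8 CPM there, *Mgst1* at 0.201, *Mc5r* at 0.0335, and *Awat1* and *Elovl3* at 0. *Scd1* carried the sum of that list, at 71.7 CPM in Vehicle 2. Macrophage markers summed to 43.1 to 62.0 CPM with bexarotene, against 31.0 to 112 CPM with vehicle, and sebaceous gland markers to 16.9 to 48.0 CPM, against 11.99 to 76.0 CPM, both again highest in Vehicle 2. Skeletal muscle markers (5 genes) summed to 1.27 to 56.6 CPM with bexarotene, highest in Bexarotene 3, against 5.29 to 25.7 CPM with vehicle, and fibroblast markers (8 genes) to 421 to 1710 CPM, highest in Bexarotene 2, against 299 to 842 CPM. The collagen genes *Col1a1*, *Col1a2* and *Col3a1* carried the fibroblast sum of Bexarotene 2 (1184, 247 and 240 CPM), while its *Dcn* (6.34 CPM) and *Lum* (0.422 CPM) were the lowest of all 8 mice. Endothelial markers summed to 16.0 to 22.6 CPM with bexarotene, against 17.5 to 22.6 CPM with vehicle, and adipocyte markers to 0.422 to 7.38 CPM, against 0.871 to 8.80 CPM. The T-lineage markers, which EL4 cells share with other T cells, summed to 145 to 170 CPM with bexarotene and 139 to 191 CPM with vehicle. The 6 neutrophil markers, of which *Ly6g* and *Mpo* were at 0 everywhere, summed to 0 to 1.60 CPM with bexarotene, against 1.91 to 3.92 CPM with vehicle. The sums did not overlap (two-sided exact permutation p = 0.0286, not adjusted for the 9 lists). Singly, *S100a9* (0.947 CPM in Bexarotene 1, 0.819 in Vehicle 3) and *Cxcr2* (0.612 in Bexarotene 3, 0.546 in Vehicle 3) overlapped. *Retnlg* (0.0943 CPM in Bexarotene 4, 0 in Vehicle 3) also overlapped, and *S100a8* did not. The sum of 0 was in Bexarotene 2, where 3 counts are worth 1.27 CPM. The part of these markers in the levels of the retinoic acid genes was not tested.

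**Figure D3:**
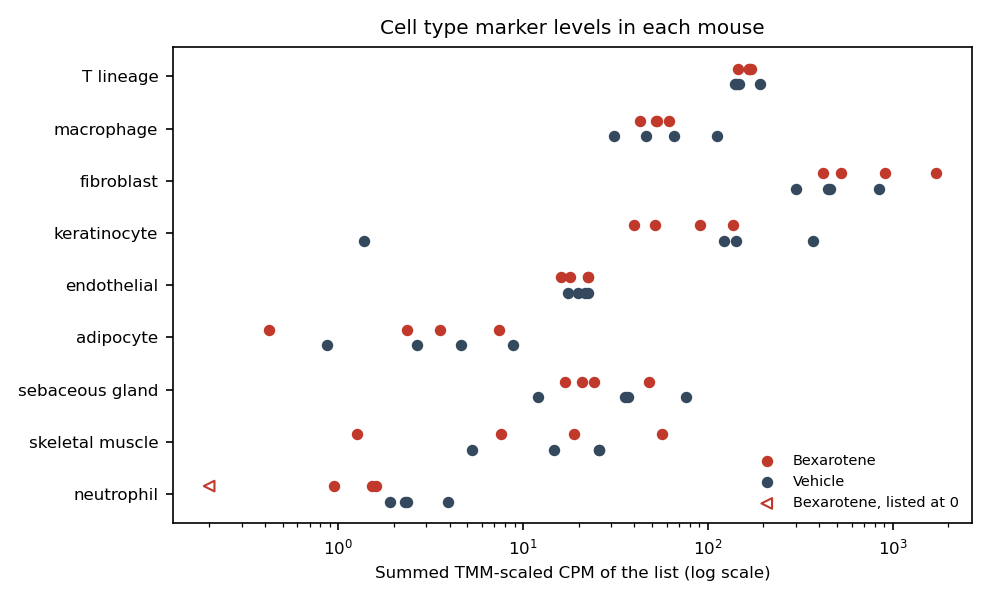
Summed TMM-scaled CPM of the marker genes of 9 cell types (log axis) in each bexarotene-treated (red) and vehicle-treated (blue-gray) mouse. Keratinocyte markers run from 1.37 CPM in Vehicle 4 to 369 CPM in Vehicle 2, and the open triangle stands at the left edge for Bexarotene 2, which had 0 CPM of neutrophil markers.

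*Cyp26b1* took its highest share of the retinoic acid gene counts in Bexarotene 3. *Cyp26b1* made up 46.7%, 38.1%, 58.3% and 27.5% of the counts of the 9 genes in Bexarotene 1 to 4, against 29.9%, 28.5%, 36.2% and 29.1% in Vehicle 1 to 4. The 95% Wilson interval was 54.7 to 61.9 in Bexarotene 3 and 20.8 to 59.1 in Bexarotene 2, whose 9 genes held 21 counts, and such intervals cover counting error only. The share of *Tgm2* was 14.8% in Bexarotene 3, below the 21.9% to 27.0% of the remaining 7 mice, and that of *Rarres2* was 13.2%, below their 19.0% to 36.5%. Shares of a sum move against each other, and in CPM that mouse was not the lowest for either gene.

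**Figure D4:**
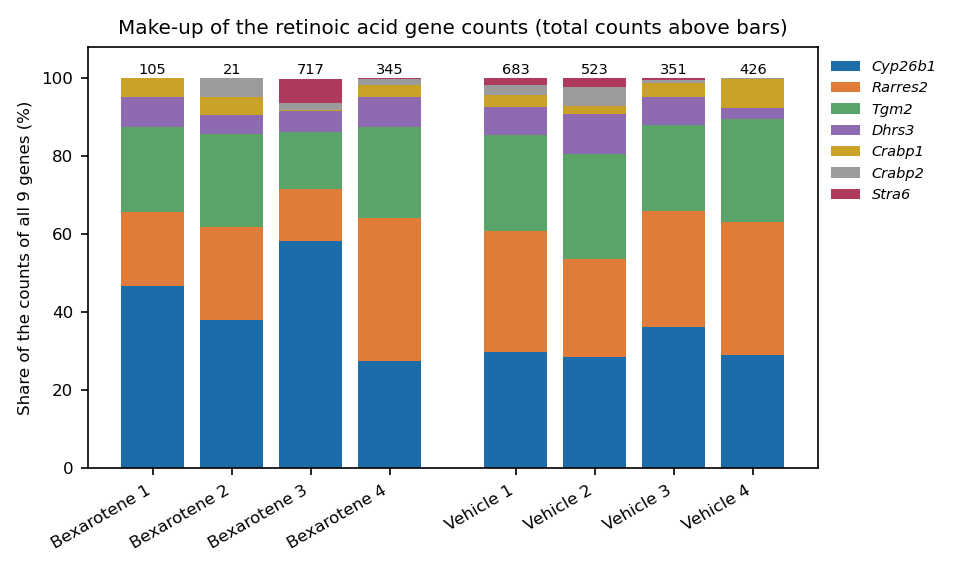
Share of the counts of the 9 retinoic acid genes (vertical axis, percent) held by each gene in each bexarotene-treated and vehicle-treated mouse, with the summed counts above the bars. *Cyp26b1* holds 58.3% of 717 counts in Bexarotene 3, and the 2 counts of *Rarb* in that mouse are not drawn.

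Per kilobase of gene length, *Rarres2*, *Cyp26b1* and *Tgm2* led in both groups. *Rarres2* averaged 1.36 ± 0.616 CPM per kb with bexarotene and 2.01 ± 0.390 with vehicle, *Cyp26b1* 1.33 ± 0.867 and 1.004 ± 0.318, and *Tgm2* 0.714 ± 0.172 and 0.993 ± 0.361 (SD, n = 4 each). *Crabp1* followed at 0.571 ± 0.354 CPM per kb with bexarotene and 0.845 ± 0.335 with vehicle, then *Dhrs3*, *Crabp2* and *Stra6*, at 0.321, 0.208 and 0.0641 CPM per kb with bexarotene and 0.418, 0.326 and 0.0401 with vehicle. With both groups pooled, no gene differed from the next in this order by more than the SD of their difference over the 8 mice. Within the groups, *Rarres2* lay above *Cyp26b1* in 4 of 4 vehicle-treated mice and 2 of 4 bexarotene-treated mice. *Crabp2* lay above *Stra6* in 4 of 4 vehicle-treated mice and 3 of 4 bexarotene-treated mice.

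Genes of the rest of the pathway, listed by role, held 0 calls in either direction at the adjusted p of 0.05 in edgeR, DESeq2 or limma-voom. At an unadjusted p of 0.05 in edgeR, 0 of the 10 tested genes for synthesis and storage passed. The same threshold was passed by 1 of 14 receptors, partners and cofactors and 0 of 15 other response genes. Over all 11616 genes tested, 428 passed it (3.68%), and 53.5% had a log2 fold change below 0. Of 29 genes for the synthesis and storage of retinoids, 10 passed the filter, 4 had a log2 fold change above 0 and 6 below, and the median was −0.025. The most abundant were *Lrp1*, which encodes a receptor that takes up lipoproteins, at 52.2 ± 6.44 CPM with bexarotene and 58.3 ± 27.0 with vehicle, and *Adh5*, an alcohol dehydrogenase gene, at 4.84 ± 0.340 and 5.11 ± 0.639 (SD, n = 4 each). Of the enzymes that make retinaldehyde, *Rdh10* and *Rdh11* had log2 fold changes of 0.028 and −0.036. Among the 10 filtered genes the values ran up to 0.71 for *Dgat1*, whose product also esterifies retinol, and down to −0.63 for *Lpl*, the lipoprotein lipase gene, neither past the test. The list of 29 also held *Cyp26c1*, a CYP26 hydroxylase gene and so 1 of clearance, which did not pass the filter. *Cyp26c1* had 0 counts over the bexarotene-treated mice and 2 over the vehicle-treated mice.

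Of 15 receptors, partners and cofactors, 14 passed the filter, 6 had a log2 fold change above 0 and 8 below, and the median was −0.061. *Ncor1*, a corepressor gene, was abundant and averaged 37.7 ± 11.9 CPM with bexarotene and 43.7 ± 3.96 with vehicle (SD, n = 4 each). The RAR genes *Rara* and *Rarg* had log2 fold changes of 0.12 and 0.020, and *Rxra*, an RXR gene active in the epidermis, −0.41. *Rxrb*, which encodes another RXR, was the 1 gene of the list below an unadjusted p of 0.05 (0.0451 in edgeR), and at 4.15 to 7.26 CPM with bexarotene, against 3.43 to 4.01 CPM with vehicle, the 1 gene whose groups did not overlap. Its log2 fold change of 0.49 was not called (adjusted p = 0.976 in edgeR), and leaving out Bexarotene 1 gave 0.31, leaving out both Bexarotene 1 and 2 gave 0.21, and scaling by total counts alone gave −0.28. Its unadjusted p was above 0.05 in DESeq2 (0.0755) and limma-voom (0.0904). Over all genes tested, 3.68% had an unadjusted edgeR p under 0.05. In 1.41% every bexarotene-treated mouse lay above every vehicle-treated mouse. *Fabp5*, whose product can carry retinoic acid to another receptor, PPARδ, had a log2 fold change of −0.65.

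Of 28 other genes known to respond to retinoic acid, 15 passed the filter, 4 had a log2 fold change above 0 and 11 below, and the median was −0.11. *Ccr9* and *Itgb7*, a chemokine receptor gene and an integrin gene of gut-homing T cells, had 0.53 and 1.04. *Itga4*, another integrin gene of the list, had −0.21. None was called, and the 95% interval of *Itgb7* ran from −0.13 to 2.21 (adjusted p = 0.976 in edgeR). The value of *Ccr9* was 0.22 without Bexarotene 3, 0.85 without Vehicle 4 and −0.088 when scaled by total counts alone. *Rai1*, named for its induction by retinoic acid, averaged 14.9 ± 2.93 CPM with bexarotene and 16.0 ± 1.36 with vehicle, and *Ccr9* 15.8 ± 6.98 and 11.2 ± 4.37 (SD, n = 4 each). *Gata6*, a transcription factor gene that did not pass the filter, had 2 counts over the bexarotene-treated mice, against 24 over the vehicle-treated mice, a depth-scaled ratio of 0.167 (95% counting interval 0.0191 to 0.671), with 0 to 0.0680 CPM against 0 to 0.448 CPM. The groups overlapped (exact permutation p = 0.143). In edgeR without the filter the unadjusted p was 0.0394 and the adjusted p 0.832, and in DESeq2 the unadjusted p was 0.131.

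**Figure D5:**
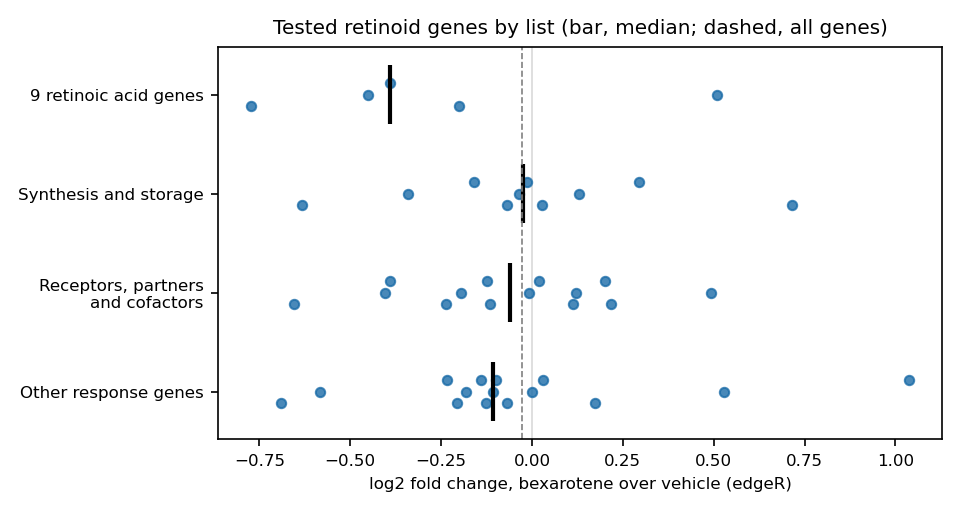
Log2 fold change, bexarotene over vehicle, from edgeR (horizontal axis) of each retinoid gene that passed the filter (points), by list, with the median of each list (black bar) and of all 11616 genes tested (dashed line, −0.027). The list medians are −0.39 for the retinoic acid genes (5 points), −0.025 for synthesis and storage, −0.061 for receptors, partners and cofactors, and −0.11 for other response genes.

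For the 3 most abundant genes, those that varied most alike over the 8 mice were sought among 6722 named genes. The measure was the root-mean-square difference of mean-centered log2 CPM, which leaves out the level of each gene. Closest to *Cyp26b1* were *Tnfrsf8*, the gene of CD30 (0.325), *Dennd2d* (0.354) and *Acta2*, a smooth muscle actin gene (0.360), where the median over all candidates was 0.705. *Rarres2* was closest to *Scarna13* (0.144), *Rpl28* (0.171) and *Birc3* (0.179), with a median of 0.579. *Tgm2* was closest to *Ctsl* (0.0556), *Nid1* (0.0944) and *Mapk3* (0.151), with a median of 0.525. The 8 points of each gene share the libraries and their unequal depth.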

How the data were processed

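Bulk RNA-seq counts of 8 libraries (4 bexarotene, 4 vehicle) were used. Per the labels, ribosomal RNA was excluded before library construction and RNA was sequenced with a directional kit, and the submitters' processing notes name Trimmomatic 0.30, FastQC 0.11.9, HISAT2 2.0.1, HTSeq 0.6.1, DESeq2 and GRCm39. The deposited values were whole-number counts per gene, neither scaled nor filtered by the authors. Rows without a gene name, which held 27.0% to 36.5% of the counts, stayed in library sizes and tests, since they carry identifiers of genes or transcribed regions.

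Genes with low counts were removed by filterByExpr at a minimum of 10 (total of 15), and the rest were scaled by TMM and tested with edgeR 4.0.16 (quasi-likelihood, no covariates, R 4.3.3), with Benjamini-Hochberg adjustment over all genes. The study's own test, DESeq2 (1.42.0), was an alternative, as were limma-voom (limma 3.58.1), other scalings and filters, protein-coding genes only, a replicate block and leaving out libraries. The quasi-likelihood test was checked on simulated counts with known changes. Exact permutation tests of single genes were two-sided, with Wilson intervals at 95% for shares (scipy 1.17.1). Log2 CPM used a prior count of 2. Overlapping genes were taken from GENCODE M39. No library duplicated another of its group.

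The 9 genes, the lists and the tests were chosen with earlier results of these data known. Besides the 9 genes, the rule named in each list the 2 most abundant genes and those with an unadjusted p under 0.05. It also named the 3 genes closest in mean-centered log2 CPM to each of the 3 most abundant members. Not every gene so chosen is reported here. *Rdh10*, *Rdh11*, *Dgat1*, *Lpl*, *Cyp26c1*, *Rara*, *Rarg*, *Rxra*, *Fabp5*, *Itgb7* and *Itga4* fall outside that rule and were named after their values were seen.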

Additional observations from a re-analysis of the deposited data

Results flagged for a closer look

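In 15 groups of 4 mice, the highest or lowest mouse was compared with the others by Dixon's test, which marks about 1 in 20 groups by chance. A value stood apart in 4 of them, all in the bexarotene-treated group. Bexarotene 3 stood above the others for *Stra6*, at 1.46 CPM (43 counts). It also did for *Rarb*, at 0.0680 CPM, but that is 2 counts against 0, where any count would stand apart, and less than 1 count was worth in Bexarotene 1 (0.158 CPM) or 2 (0.422 CPM). Bexarotene 2 stood below the others for *Tgm2*, at 2.11 CPM (5 counts), and for *Dhrs3*, at 0.422 CPM. The *Dhrs3* value is 1 count in a library where 3 counts are worth 1.27 CPM, as much as the level of any other bexarotene-treated mouse.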

How the results depend on the processing

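No setting called any of the 9 genes. DESeq2 called 3 genes in all, none of them a retinoid gene named here, against 0 in edgeR. Of single-gene values, 229 kept their direction and 12 turned. *Dhrs3* turned to 0.22 with limma-voom. With total counts as the only scaling, *Rxrb* turned to −0.28 and *Ccr9* to −0.088, and the medians moved to −0.91 for the retinoic acid genes, −0.72 for synthesis and storage, −0.62 for receptors and cofactors and −0.72 for other response genes, with all genes at −0.66. *Ncor1* turned to 0.14 without Bexarotene 1 and Bexarotene 2. The cause was not tested.

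Leaving out 1 mouse gave −0.045 to 0.74 for *Cyp26b1*, −2.68 to 1.98 for *Stra6*, −1.11 to 0.67 for *Crabp2*, −0.49 to 0.33 for *Dhrs3*, −1.10 to −0.17 for *Crabp1*, −0.82 to −0.33 for *Rarres2*, −0.51 to −0.11 for *Tgm2*, 0.31 to 0.64 for *Rxrb*, 0.22 to 0.85 for *Ccr9*, −0.34 to 0.18 for *Lrp1* and −0.12 to 0.011 for *Adh5*. The list medians ran from −0.46 to −0.11 for the retinoic acid genes, −0.10 to 0.035 for synthesis and storage, −0.21 to 0.063 for receptors and cofactors and −0.13 to 0.14 for other response genes. Some of the genes followed reached an unadjusted edgeR p under 0.05, not the adjusted threshold, with 1 mouse left out. These were *Rarres2* without Bexarotene 4 (−0.82, unadjusted p = 0.0102) and *Stra6* without Vehicle 2 (1.98, unadjusted p = 0.0264). *Ccr9* did without Vehicle 4 (0.85, unadjusted p = 0.0189) or Bexarotene 4 (0.73, unadjusted p = 0.0489). *Gata6*, fitted without the filter, did without Vehicle 4 (−3.02, unadjusted p = 0.00853) or Bexarotene 3 (−5.26, unadjusted p = 0.0178). *Rxrb* did without Bexarotene 3 (0.61, unadjusted p = 0.0300) or Bexarotene 4 (0.64, unadjusted p = 0.0222). *Rxrb* no longer passed it without Bexarotene 1 (0.166), without Bexarotene 2 (0.0729) or without both (0.295). Nor did *Rxrb* pass it without any 1 vehicle-treated mouse (0.0543 to 0.0874). It also failed with the replicate block (0.0606), without the filter (0.0795) or with 10 counts in every mouse (0.0673). The unadjusted edgeR p of *Rxrb* stayed under 0.05 with RLE (0.0426) or upper-quartile (0.0481) scaling in place of TMM. It also did with protein-coding genes only (0.0412).

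For replicate numbers shared by the groups, correlations over genes were −0.090 to 0.0015, within the −0.235 to 0.243 of mice with different numbers. They showed no pairing of the mice but cannot exclude one, since the libraries differ widely in depth. With the replicate block 0 genes were called, and *Crabp2* turned to 0.29 and *Dhrs3* to 0.12. A minimum of 10 counts in every mouse left none of the 9 genes. Depth limits *Cyp26a1* and *Rarb*, which had 0 and 2 counts, and every value of Bexarotene 2, with 21 counts over the 9 genes.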
